A study of Mus musculus with 6 samples.

Results

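Open chromatin at the core and linker histone genes was read from ATAC-seq of mouse kidney. ATAC-seq uses a transposase that cuts accessible DNA, so that stretches with many cut ends mark open chromatin. The members were the protein-coding genes of the GENCODE M39 annotation whose symbols begin with H1f, H2ac, H2bc, H3c or H4c and a number, which gave 73 of 21757 protein-coding genes. Of these, 54 lay in the cluster on chromosome 13, 10 on chromosome 3, 3 on chromosome 11 and 6 outside any cluster, where members up to 2 Mb apart were joined into 1 cluster. The rule used names and positions only, not measured values. Each gene took the fold enrichment of the strongest listed interval within 1 kb of it.

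The series holds kidney cortex libraries of 3 WT mice and 3 Acly cKO mice, whose gene for ATP-citrate lyase is deleted in the renal tubule. The methods also name WT libraries deposited earlier, and whether the peak list used here includes them is not known. Per the study's methods, the cKO mice were Acly fl/fl with Ksp-Cre, a Cre driven by the Cdh16 promoter and active broadly in tubular epithelium, and the controls were littermate Acly fl/fl mice without Cre, so both groups carried the floxed alleles. The labels give all 6 libraries the treatment Control. The methods give an age in weeks for mice assigned to experimental groups, but none for these libraries in particular. The WT libraries came from batches 1, 1 and 2 and the cKO libraries from batches 4, 4 and 5, so the batches were split along genotype and the 2 cannot be told apart. The single peak list has no column per library, and its peak names mark a pool of all libraries without naming them. No genotype comparison, replicate error or test was therefore possible, and every value below describes the pool.

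Histones are the proteins around which DNA is wound. A nucleosome holds H2A, H2B, H3 and H4, and the linker histone H1 binds where DNA enters and leaves it. Most of these genes are replication-dependent: they are short, have no introns, sit in clusters and are transcribed mainly in S phase, and their mRNAs end in a conserved stem-loop in place of a poly(A) tail. Neighbouring H2A and H2B genes often face away from each other and share the stretch between their starts. In this set H1f0 and H1f10 are replication-independent linker histones, which non-dividing cells also use, and H1f6, H1f7, H1f8, H1f9, H2ac1 and H2bc1 are known from testis or oocyte. The adult kidney holds mostly non-dividing cells.

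The stretches between divergent starts and before single genes are shown first, because the values at the starts were read around them. Positions below are in bases, negative upstream. Sequences are from GRCm39, the build of the files, and capitals mark TATAAA (the TATA box), CCAAT (the site of NF-Y) and ATTTGCAT (the octamer, the site of OCT1), each on either strand. The first of these 3 stretches held the summit with the highest value among the 13 divergent pairs described below. The second lay in a duplicated block and had no listed interval, and the third belongs to the germline pair, also without one.
Between H2ac11 and H2bc11, chr13:22227115-22227383, plus strand: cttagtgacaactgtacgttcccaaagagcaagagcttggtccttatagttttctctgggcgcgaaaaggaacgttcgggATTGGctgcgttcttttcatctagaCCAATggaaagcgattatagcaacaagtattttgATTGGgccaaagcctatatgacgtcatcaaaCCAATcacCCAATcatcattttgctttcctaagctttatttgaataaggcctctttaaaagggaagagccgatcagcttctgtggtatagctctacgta
Between H2bc23 and H2ac23, chr13:21994368-21994634, plus strand: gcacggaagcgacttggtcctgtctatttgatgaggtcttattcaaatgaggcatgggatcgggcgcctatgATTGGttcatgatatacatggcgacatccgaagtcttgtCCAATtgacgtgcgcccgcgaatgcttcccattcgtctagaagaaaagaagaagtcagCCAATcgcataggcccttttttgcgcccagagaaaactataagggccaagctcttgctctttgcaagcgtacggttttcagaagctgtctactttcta
Between H2bc1 and H2ac1, chr13:24118143-24118442, plus strand: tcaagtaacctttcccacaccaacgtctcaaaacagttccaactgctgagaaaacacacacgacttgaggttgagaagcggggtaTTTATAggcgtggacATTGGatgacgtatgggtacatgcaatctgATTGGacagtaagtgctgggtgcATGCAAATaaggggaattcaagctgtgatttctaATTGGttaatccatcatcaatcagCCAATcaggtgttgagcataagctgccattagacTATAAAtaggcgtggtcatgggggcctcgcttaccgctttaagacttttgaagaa
The first 2 hold several CCAAT strings each and no octamer or TATAAA, and the germline stretch holds all 3 kinds.

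The 150 bases before 2 H4 genes and 2 H1 genes show elements more frequent in these families than in the other histone families. In the H4 sequences capitals also mark GGTCCG, the core of the element that HINFP binds in H4 promoters, and in the H1 sequences AAACACA, the H1 box. GGTCCG was added after the H4 sequences had been seen.
Before H4c3, chr13:23882438-23882587, minus strand: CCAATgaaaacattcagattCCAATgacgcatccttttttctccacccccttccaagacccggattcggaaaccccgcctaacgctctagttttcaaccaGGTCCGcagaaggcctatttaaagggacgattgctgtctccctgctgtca
Before H4c16, chr6:136781414-136781563, minus strand: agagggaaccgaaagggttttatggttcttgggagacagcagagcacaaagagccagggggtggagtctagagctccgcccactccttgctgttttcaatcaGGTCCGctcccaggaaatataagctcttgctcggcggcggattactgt
Before H1f2, chr13:23922641-23922790, plus strand: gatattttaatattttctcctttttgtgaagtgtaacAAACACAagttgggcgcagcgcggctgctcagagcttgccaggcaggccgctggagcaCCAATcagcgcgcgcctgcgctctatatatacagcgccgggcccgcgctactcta
Before H1f6, chr13:23879647-23879796, plus strand: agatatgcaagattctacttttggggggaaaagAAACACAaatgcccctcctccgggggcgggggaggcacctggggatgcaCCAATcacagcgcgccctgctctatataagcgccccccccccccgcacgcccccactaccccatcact
H4c3 lies in the chromosome 13 cluster and H4c16 outside the clusters, and both carry GGTCCG shortly before the start. H1f6 is the testis H1, yet it carries the same H1 box and CCAAT string as H1f2.

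An open interval lay within 1 kb of 66 of the 73 histone genes (90.4%), beside 82.8% of all protein-coding genes. A fold enrichment of at least 5 was reached by 64 of the 73 (87.7%), beside 74.4% of all genes. The 66 genes drew on 72 distinct intervals of 279569, because neighbours shared them: 44 of the 66 had the same strongest interval as another member, so gene values are not independent. The median fold enrichment over the 73 was 34.7 and over all protein-coding genes 24.4, with a gene without an interval set to 0. The histone genes were open but not extreme: 50 of 73 exceeded the median of all genes, and 1, H1f2, exceeded the 90th percentile of 63.4.

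Fold enrichment is the caller's ratio of the read pile at a summit to its background. All 727147 summits under a fold of 20 had values that were whole multiples of 0.0655, within 0.05 of a step. Taking 1 step as 1 read gives the counting error of a single value (exact Poisson, 95%). It covers counting only, not the spread between mice. By this measure the strongest value, 63.6 at H1f2, had an interval of 59.7 to 67.8, apart from the next, 53.8 shared by H2ac6 and H2bc4 (50.2 to 57.6). Below that the order could not be resolved: 52.6 at H4c3 (49.0 to 56.3), 51.5 shared by H4c9, H2ac11 and H2bc11 (48.0 to 55.3) and 48.6 shared by H4c8, H2ac10 and H3c8 (45.2 to 52.3) overlapped their neighbours in the order.

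The strongest interval near a gene need not sit at that gene. In 26 of the 66 genes its summit lay over 500 bases from the start of the gene's canonical transcript, its reference transcript in the annotation. A second value was therefore taken for each gene, after the data had been seen: the highest summit within 500 bases of that start, called the value at the start. It was present for 60 of 73 genes (82.2%), beside 73.6% of all protein-coding genes, with a median of 29.3 over the 73 and of 15.3 over all genes.

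**Figure D1:**
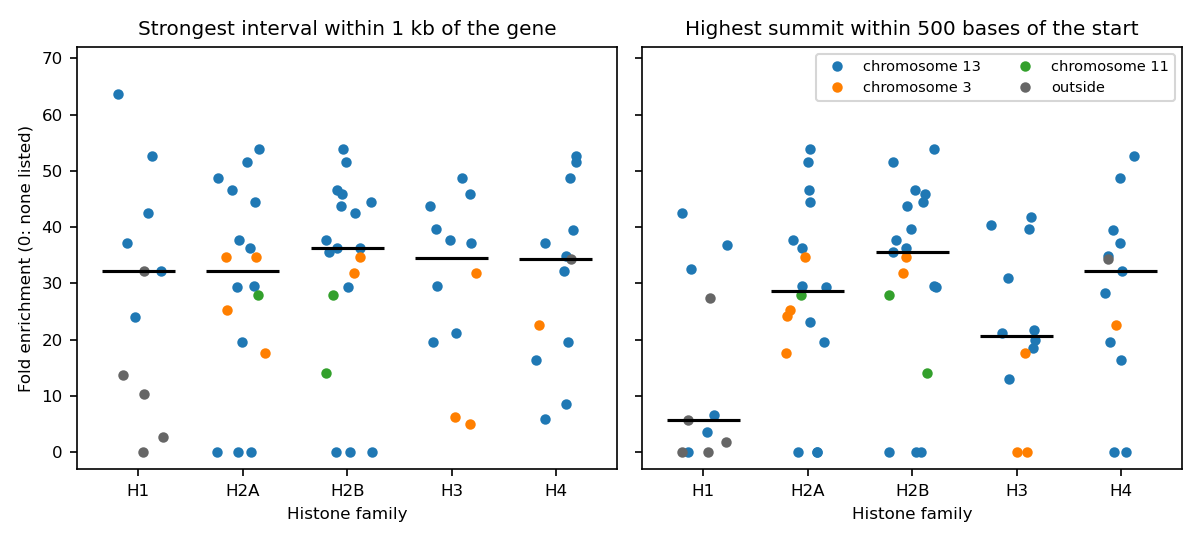
Fold enrichment of each of the 73 histone genes by family, coloured by location, as the strongest interval within 1 kb of the gene (left) and as the highest summit within 500 bases of the start (right); black lines are medians and 0 means that none is listed. The H1 median falls from 32.2 on the left to 5.70 on the right, while the H2B median stays near 36 (36.3 and 35.6).

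By location, the chromosome 13 genes had a median of 37.2 (lowest 0, highest 63.6). An interval lay near 48 of these 54 (88.9%), beside 82.8% of all protein-coding genes. The chromosome 3 genes had a median of 28.5 (4.98 to 34.7), with an interval near 10 of 10. All 3 chromosome 11 genes had one, at 14.1 for H2bc27 and 28.0 shared by H2bc26 and H2ac25. The 6 genes outside clusters had a median of 12.0, from 0 for H1f9 to 34.3 for H4c16. At the start the medians were 32.3 on chromosome 13, 28.0 on chromosome 11, 23.3 on chromosome 3 and 3.76 outside, so the order of chromosomes 3 and 11 turned and the outside median was lower than the 12.0 near the gene. The ranges of the 4 locations overlapped, and their family make-up differs, since 5 of the 6 outside genes are H1 genes.

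The chromosome 13 cluster spans chr13:21899933-24118834 on GRCm39, and gaps of over 100 kb divide it into 4 blocks. Block 1 holds 18 genes over 122 kb, with a median of 22.7. An interval lay near 14 of them (77.8%), beside 82.8% of all protein-coding genes. Block 2 holds 5 genes over 8.51 kb, all with an interval, with a median of 51.5. Block 3 holds 29 genes over 233 kb, all with an interval, with a median of 39.7. Block 4 holds the germline pair H2bc1 and H2ac1 alone, neither with an interval. The highest values stood in blocks 2 and 3, and the 4 block 1 genes without an interval, H2bc23, H2ac23, H2ac24 and H2bc24, were among its last 6, with H4c17 and H4c18 between the pairs.

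**Figure D2:**
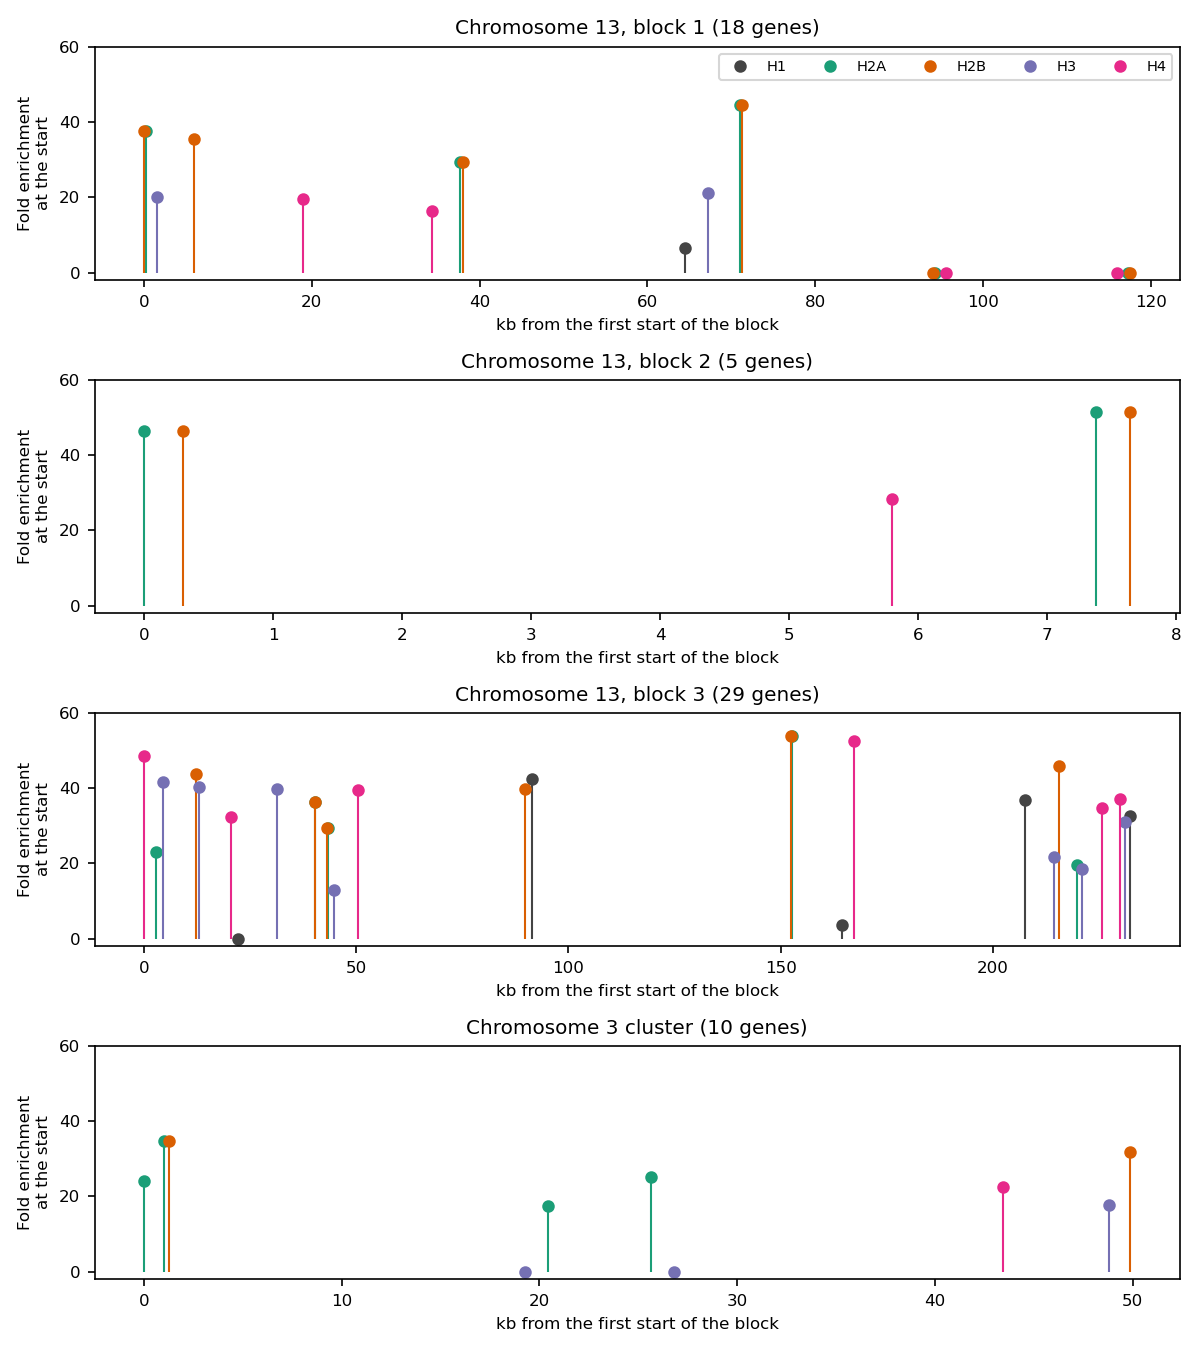
Value at the start (fold enrichment of the highest summit within 500 bases of the canonical start; 0 where none is listed) for each gene against its distance in kb from the first start of its block, coloured by family. The 6 genes at the right end of block 1 are at 0, and H3c15 and H3c14 in the chromosome 3 cluster are at 0. H1f3 in block 3 is also at 0; its coding part, with a summit of 18.3 nearby, begins 1828 bases from its annotated start.

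The 18 H2A genes had a median of 32.1 and the 19 H2B genes of 36.3, and in each family the genes without an interval, 3 of each, were those of the 3 pairs H2bc23 and H2ac23, H2ac24 and H2bc24, and H2bc1 and H2ac1. At the start the highest value, 53.8, was shared by H2ac6 and H2bc4, which face away from each other across a single summit. They are not among the pairs below because their annotated starts overlap. The summit lay at -169 bases from the start of H2ac6 and at -115 from the coding part of H2bc4, whose annotated start lies 584 bases further upstream. The coding part of H2bc6 begins 35138 bases from its annotated start. Its 42.4 near the gene came from a summit at the start of H1f4. It had 39.7 at its annotated start and 35.8 at -73 bases from its coding part. H2bc27 on chromosome 11, an H2B gene that stands alone, had the lowest listed value of the H2A and H2B genes, 14.1 (12.3 to 16.2).

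Of 13 divergent pairs of neighbouring members, 12 were of H2A with H2B and 1 of H2B with H3. Their starts lay 176 to 660 bases apart (median 268). In 10 of the 13 both starts lay inside 1 interval, and in these 10 a summit stood between the starts at 28.0 to 51.5 (median 37.1). It lay a median of 35.25 bases from the middle and at most 222. The other pairs had no listed interval. No share over all divergent protein-coding pairs was taken. Intervals at protein-coding starts had a median of 3083 bases, longer than these distances, so the count does not set histone pairs apart. The pair farthest apart, H2bc9 and H3c7, had its summit at -108 bases from the start of H2bc9, with 43.8. That pair also had a separate summit of 40.4 at -73 bases from the coding part of H3c7.

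**Figure D3:**
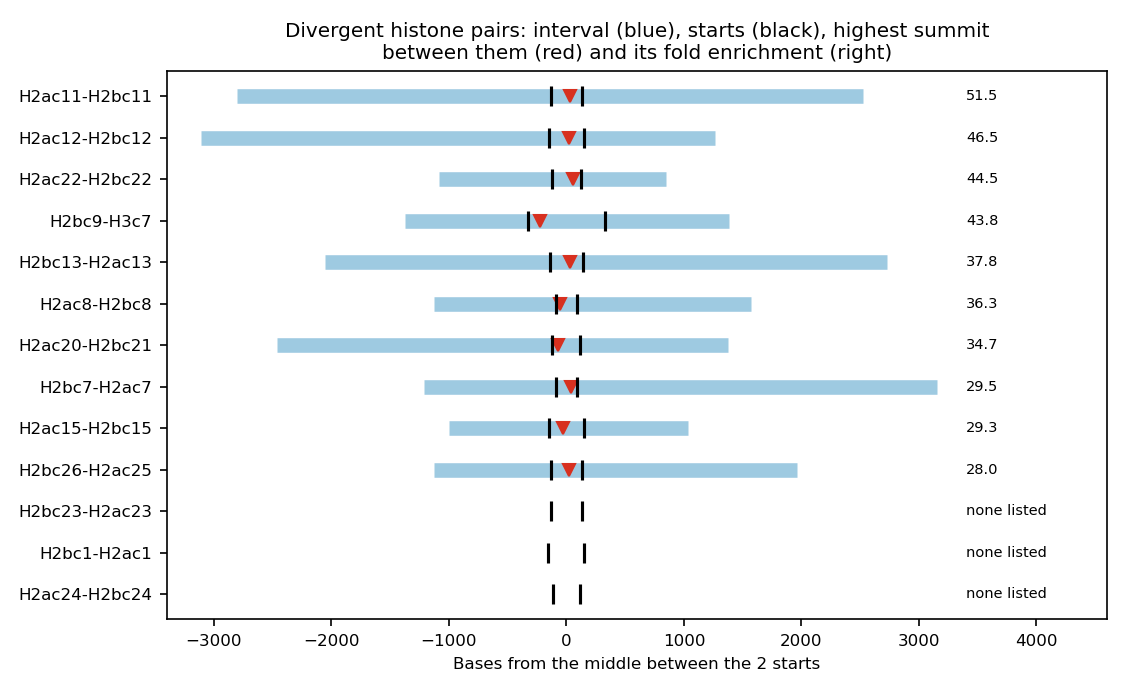
The 13 divergent pairs, each drawn around the middle between its 2 starts (black ticks), with the interval that holds both starts (blue) and the highest summit between them (red), in bases; the fold enrichment of that summit is printed at the right. In 10 pairs the summit lies between the starts, at 28.0 to 51.5, and 3 pairs have no listed interval.

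The H4 genes, 13 in number, had a median of 34.3 near the gene and 32.2 at the start. At the start H4c3, at 52.6, and H4c8, at 48.6 with its summit at -19 bases, were the highest. Near the gene H4c9 had 51.5, from the summit between H2ac11 and H2bc11, and 28.2 at its own start. H4c16, which stands alone on chromosome 6, had 34.3 (31.4 to 37.4), close to H4c2 at 34.8 (31.9 to 37.9) inside the cluster. H4c12 was low at 16.4 and H4c11 at 19.6. H4c17 and H4c18 had no summit within 500 bases of the start.

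The 12 H3 genes all had an interval near them, beside 82.8% of all protein-coding genes. Their median was 34.5 near the gene but 20.6 at the start. H3c8 had 41.7, H3c7 40.4 and H3c6 39.7 at the start, while H3c4 had 13.03 (11.3 to 15) beside the H2bc7 and H2ac7 pair at 29.5. On chromosome 3, H3c13 had 17.7 at the start against 31.9 at its neighbour H2bc18, and H3c15 and H3c14 had none there. For H3c10, H3c2, H3c3 and H3c4 the strongest interval within 1 kb had its summit between -1432 and -1005 bases from the start, at a neighbouring H2A or H2B gene.

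The 11 H1 genes varied most between the 2 measures. At the start, H1f4 had 42.4, H1f2 36.9, H1f1 32.5 and H1f0 27.4. H1f5, which encodes another of the linker histones of dividing cells, had only 6.61 at the start, and its strongest summit, 24.1, lay 1144 bases downstream, past the coding part. H1f2 likewise had its strongest summit, the 63.6 above, 944 bases downstream of the start, past the coding part. H1f3 had 18.3 at -67 bases from its coding part. H1f10, the other replication-independent linker histone, had 5.70 at the start and 10.3 within 1 kb, under H1f0.

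The 6 germline genes had low values or none at the start in the pool. H1f9, H2ac1 and H2bc1 had no interval within 1 kb. H1f8, the oocyte H1, had 2.75 near the gene and 1.83 at the start. H1f7 had none at the start but 13.7 from an interval inside the gene, 858 bases downstream of its start. That was above the 10.3 of H1f10 within 1 kb. H1f6, the testis H1, had 3.54 at the start, although the interval of its neighbour H4c3, at 52.6 with a summit 2676 bases away, fell within 1 kb of it. At the start, 2 of the 6 germline genes had a summit, against 56 of the 65 replication-dependent genes (86.2%) and 73.6% of all protein-coding genes. H1f6 and H4c3 lie beside each other in block 3, and their values at the start differed from 3.54 (2.66 to 4.61) to 52.6 (49.0 to 56.3).

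Summits stood upstream of the histone starts. Among the 60 genes with a summit at the start, 52 had it upstream (86.7%) and 50 within 200 bases upstream (83.3%), at a median position of -68 bases. Among the 16011 protein-coding genes with one, 45.3% had it upstream and 38.9% within 200 bases upstream, at a median of 9 bases downstream. By family the medians were -127.5 for H2B, -112 for H2A, -49 for H4, -35.5 for H3 and 14 for H1. In several members, H2bc13, H2ac13 and H3c10 among them, the annotated start is the first base of the coding part. A start annotated there puts the summit further upstream than a start before the coding part would. The part of this in the comparison with all genes was not tested. Measured from the coding part, 58 of 64 genes had the summit upstream, at a median of -107.5 bases. That measure does not rest on the annotated start, but the coding part begins at or after it. A summit before the start is then upstream of the coding part as well. No share over all genes was taken for this measure, so it does not set the histone genes apart. The methods give a shift of 100 bases for the peak calling with a sign that is unclear in their text. That is more than several of these medians, and the same call gave the positions for the histone genes and for all genes. The part of the shift in these positions was not tested.

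**Figure D4:**
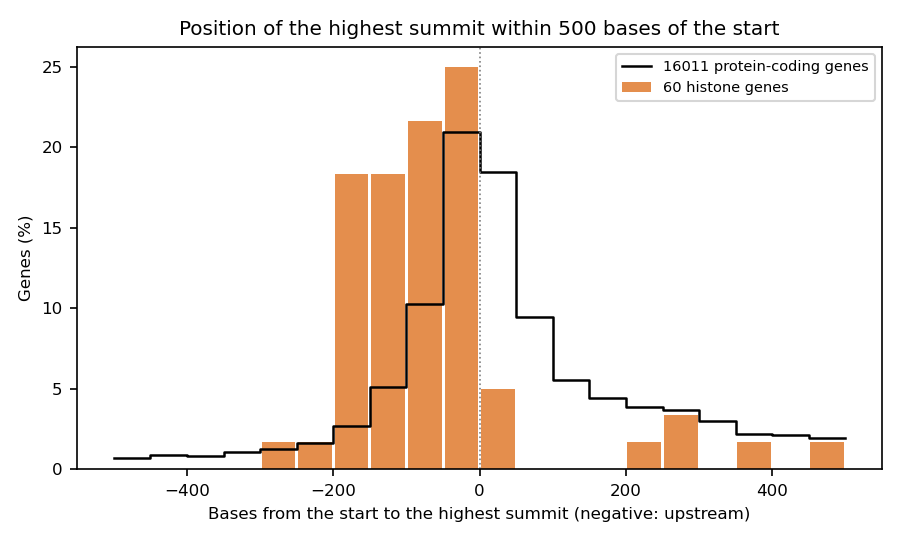
Position of the highest summit within 500 bases of the canonical start, in bins of 50 bases, as the percent of the 60 histone genes (bars) and of the 16011 protein-coding genes (line) that have one. The histone summits gather in the 200 bases upstream of the start (83.3%, beside 38.9% of all genes).

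The intervals were long enough to cover whole histone genes. Of the 73 coding parts, 57 lay wholly inside intervals, 7 partly and 9 outside. The 36 intervals that hold a member's start measured 1197 to 8103 bases (median 2837), and 17 of them held several starts, up to 3. The longest held H4c8, H2ac10 and H3c8 with 17 summits. The median interval at a histone start was 3470 bases, beside 3083 at the starts of all protein-coding genes and 434 over the whole list.

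The promoter strings differed between families. Windows ran from 250 bases before to 50 after the canonical start, both strands were searched, none of the 6 strings contains another, and the windows of a divergent pair overlap. CCAAT was found in 18 of 18 H2A, 18 of 19 H2B and 11 of 12 H3 windows, in 7 of 11 H1 and 4 of 13 H4, and in 39.9% of all protein-coding windows. The octamer was found in 7 H2A and 8 H2B windows, in no H1, H3 or H4 window, and in 1.63% of all. TATAAA was found in 36 of 73 (49.3%), beside 13.2% of all. AAACACA was found in 5 of 11 H1 windows, in 1 H2A, 2 H2B and 1 H3 window, and in 6.60% of all. GGTCCG was found in 12 of 13 H4 windows, between positions -80 and -11, the exception being H4c1, and in 9.39% of all. It was also found in 2 H1 windows (H1f0 and H1f10, both at -46), in 2 H3 and in 1 H2B window. GGGCGG, the GC box, was as frequent in histone windows (42.5%) as in all (42.5%). Members with and without an interval carried these strings: the germline genes H2ac1 and H2bc1 hold CCAAT, the octamer and TATAAA.

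The 3' stem-loop, which SLBP binds on histone mRNA, was found after the stop codon of 61 members, 58 of the 65 replication-dependent and 3 of the 6 germline genes, at 22 to 59 bases from the stop (median 32). It had 6 forms, and the 3 commonest are shown from 1 gene each, with the stem in capitals.
H2ac11 (39 genes share this form), chr13:22226653-22226668, minus strand: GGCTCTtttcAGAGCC
H3c7 (9 genes), chr13:23729102-23729117, plus strand: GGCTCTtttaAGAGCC
H4c3 (8 genes, all H4), chr13:23882072-23882087, minus strand: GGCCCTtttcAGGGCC
No match was found for H1f0, H1f10, H1f7, H1f8, H1f9, H2ac22, H2bc22, H2bc21, H2bc23, H2bc24, H3c8 and H4c1, which says only that these letters are not in the window. For H2bc22, H2bc23 and H2bc24 the annotated coding part runs over 2 exons and its stop lies in the second. The stretch before that stop was not searched, so their lack of a match rests on the annotation. The germline genes H2ac1 and H2bc1, without an interval, carry a stem-loop, and H2ac22, at 44.5, has no match.

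Histone genes are near-copies of each other, and the authors kept uniquely mapped reads, so repeated sequence limits what could be measured. The 13 H4 genes encode 1 protein from 12 distinct coding sequences, the 12 H3 genes 2 proteins from 11, the 18 H2A genes 9 from 16 and the 19 H2B genes 13 from 18. The 11 H1 genes encode 11 different proteins. Over a median of 72.4% of the coding part, a 50-base word, the length of 1 read, occurred more than once in the genome, with up to 19 copies. The 250 bases before the gene were different: 59 of 73 genes had no repeated word there.

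Of the 14 genes with repeated words there, 10 lay in 2 inverted duplications, and the others were H2bc3, H2bc4, H4c11 and H4c12. On chromosome 13, 19872 bases with H2bc23, H2ac23 and H4c17 (chr13:21976708-21996579) aligned to 19782 bases with H4c18, H2ac24 and H2bc24 (chr13:22015702-22035483, opposite strand) with 98.7% identity. Of these copies 1.96% and 1.17% lay in intervals. All words in the 250 bases before each of these 6 genes were repeated. None of the 6 had a summit at the start, and H4c17 and H4c18 had 8.58 and 5.96 from summits 661 and 666 bases downstream. On chromosome 3, 2112 bases with H3c15 and H2ac19 (chr3:96145778-96147889) aligned to 2108 bases with H2ac18 and H3c14 (chr3:96152574-96154681, opposite strand) with 99.6% identity. H2ac19 and H2ac18 had 17.5 and 25.2 from summits at -271 and -236 bases from the start, and H3c15 and H3c14 had 6.22 and 4.98 near the gene. Where a read has 2 equal places it is not counted, so a missing interval there is not a measurement of closed chromatin. The part of this filter in the low values was not tested.

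**Figure D5:**
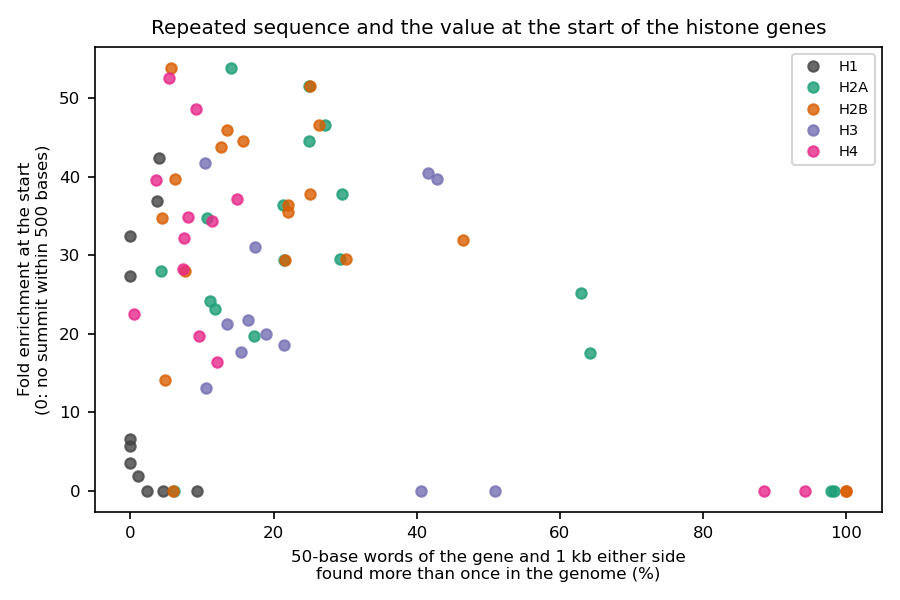
Value at the start against the percent of 50-base words, in the gene and 1 kb either side, that occur more than once in the genome, for the 73 histone genes by family. The 6 genes of the duplicated block on chromosome 13 sit at 0 between 88.5% and 100% repeated, and the germline genes sit near 0 on the left, with little repeated sequence.

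Over the gene and 1 kb either side, 9 genes had 50% or more of their words repeated, with a median fold enrichment of 5.96 and 2 values at the start. The other 64 had a median of 35.9. Among the replication-dependent genes, 56 had less than 50% repeated, a limit set after the data had been seen. Of the 56, 54 had a summit at the start, beside 73.6% of all protein-coding genes. Within 500 bases of where the coding part begins all 56 had one, from 4.91 at H3c14 to 53.8 (median 34.5). That measure was not taken over all protein-coding genes. H3c14 lies in the chromosome 3 duplication and is among the 56 with 40.6% repeated. In the 250 bases before it 98.0% of the words were repeated, and its summit lay 483 bases downstream of where its coding part begins. H2ac1, H2bc1 and H1f9 had no interval, with 6.07%, 5.91% and 2.31% of their words repeated and none in the 250 bases before the gene. Over the 65 replication-dependent genes the repeated share and the value at the start had Pearson's r of -0.55 and Spearman's rho of -0.23, a description over genes of 1 pool, some of which share intervals.

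Other genes of histone supply are given beside the members, from lists chosen with earlier results of these data known. Histone genes outside the naming rule, mostly the replication-independent variants, had an interval in 10 of the 11 found in the annotation, with a median of 45.9. H2az1 had 86.2 (H2A.Z, the variant of promoters), H2aj 63.6, H3f3a 48.3 and H3f3b 45.9 (both H3.3, laid down outside S phase), and the testis gene H2al2a had none. The factors that drive or process histone mRNA had an interval in 16 of 16 found (median 56.7, 29.6 to 90.5). Npat, the coactivator of the histone locus body, had 66.0, Slbp 72.3 and Hinfp 69.5, and the lowest was Eri1 at 29.6. Histone chaperones had one in 15 of 15 (median 50.2) and S phase genes in 13 of 13 (median 54.2), with Pcna at 68.9 and Mki67 at 28.9. These counts stand beside the 82.8% of all protein-coding genes with an interval within 1 kb. All 4 medians lay above the 34.7 of the members, with overlapping ranges and no test. At the start the medians were 45.9, 56.7, 46.7 and 41.9 in the same order, beside 29.3 for the members. The lowest chaperone there was Hat1, with 1.96 at the start and 44.7 near the gene.

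The other protein-coding genes between the ends of the chromosome 13 cluster were of 2 kinds. The 35 vomeronasal receptor genes (Vmn1r) between blocks 2 and 3, which serve pheromone sensing, had an interval in 7 (20%), beside 82.8% of all protein-coding genes. The highest was 8.25, and 2 of the 35 had a summit at the start, at up to 2.03. The other 13 all had an interval within 1 kb, with a median of 16.8. Zfp322a had 60.6, Zfp184 46.8 and Abt1 42.4, and the kidney phosphate transporter family members Slc17a1 and Slc17a3 had 19.1 and 16.8. The histone genes of blocks 2 and 3 thus stood on either side of a stretch of receptor genes with few and weak intervals. Repeated words were not counted in the receptor genes, so a missing interval there is not a measurement of closed chromatin.

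The labelled tissue was checked by marker genes. All 17 markers of proximal tubule, thick ascending limb, distal tubule and collecting duct had an interval within 1 kb, beside the 82.8% of all protein-coding genes. Of these 15 had a summit at the start, with Aqp1 the highest at 35.1 and Pvalb and Slc4a1 without one. The medians at the start were 11.1 for the proximal tubule, 6.45 for the thick ascending limb and distal tubule and 4.19 for the collecting duct, below the 15.3 of all genes. Markers of podocytes (4 of 4), endothelium (4 of 4) and immune cells (4 of 4) also had an interval. So did 6 of 6 genes of other organs, 3 of them with a summit at the start, none above 2.95. Near the gene the medians were 14.5 for proximal tubule, 18.2 for thick ascending limb and distal tubule and 7.46 for collecting duct. They were 7.14 for podocytes, 7.27 for endothelium, 9.20 for immune cells and 9.79 for other organs. By that measure the genes of other organs did not stand apart from the kidney markers. Bulk tissue does not tell which cells held the open histone genes, and few cells with wide-open chromatin cannot be told apart from many cells with less.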

How the data were processed

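ATAC-seq libraries of mouse kidney cortex, 3 WT and 3 Acly cKO, were grouped from their labels. Per the methods, the authors used fastp to trim 50-base paired reads and Bowtie2 2.3.4.3 for alignment against mm39. Duplicates and reads that mapped to several places were dropped, and MACS3 3.0.0 called the peaks (extension 200, shift 100 with a sign the text leaves unclear, q 0.05, summits called). Blacklisted regions were taken out with BEDTools 2.29.1. The deposited list gives 1 call on the pool with the fold enrichment (a ratio) and -log10 q of each summit, a score and the summit's distance from the interval start. The score was not used. An earlier, unfiltered list was deposited with -log10 q alone. Summed over the member windows it held 353 summits, where a summit in several windows counts for each. All 353 were at the positions of the filtered list. Depth per library is unknown. The methods also name WT libraries deposited earlier, and the files do not show whether the pool holds them.

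Distinct intervals were joined to GENCODE M39 genes (GRCm39) with Python 3.11.15, pandas 2.3.3 and numpy 2.4.6, each taking its summit with the highest -log10 q. Words of 50 bases (36 and 100 as alternatives) were counted on both strands of the genome with numba 0.67.0, and copies were aligned with biopython 1.88. The interval assignment and word counts were tested on simulated data. Members, lists and rules were chosen with earlier results of these data known. All members were described, with other genes from the chosen lists. H3f5 and H2bk1 were not matched by symbol, and Sympk was not analysed here because its symbol was misspelled in the list. Alternatives are given in the closing section.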

Additional observations from a re-analysis of the deposited data

How the results depend on the processing

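Of 131 values under an alternative setting, 114 stayed within 1.5 times the reported value, 17 moved by more and 0 reversed. Counts, shares and fold enrichments cannot fall below 0, so a change of sign was possible only for the distances of summits from the start. The order between groups was not among these values, and the order of the locations changed in part at the start, as described above. The number of histone genes with an interval ranged from 64 to 71 of 73. The 72 distinct intervals became 47 within 1 kb of the start and 46 with a fold of at least 5. The medians moved as follows. With summits within 500 bases of the canonical or coding start, both chosen after seeing the data, the genes outside clusters went from 12.0 to 3.76 under both, H1 from 32.2 to 5.70 and 6.61, and H3 from 34.5 to 20.6 under both. H3 was 21.5 with the highest summit within 1 kb of the gene. The germline median of 1.37 was 9.49 within 3 kb, 0 with a fold of at least 5 and at either start, and 13.7 over genes with an interval. The chromosome 13 median of 37.2 was 22.7 in block 1 and 0 in block 4. The median share of repeated words in the gene fell from 43.2% at 50 bases to 27.4% at 100.

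Few members in a group and shared intervals bound these medians. No paired analysis was possible because the pooled list has no column per library, which also means that none was left out in turn. Depth per library is unknown, and a gene without an interval was not shown to be closed.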
